A study of Mus musculus with 12 samples.

Results

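The genes described here encode the proteins of the cytosolic ribosome, in cultured mouse ovaries of 2 ages with and without a ginseng fraction. They were taken by name: a gene was a member when its symbol was Rps or Rpl followed by a number, or that of Rpsa or a stalk protein (Rplp0, Rplp1, Rplp2), and when at least 1 probe set of the array carried that symbol alone. Symbols marked as pseudogenes, the S6 kinases (Rps6k) and Rps19bp1 were left out. This gave 68 of the 22180 genes measured, 26 of the small subunit and 42 of the large subunit. All 68 were found by gene identifier in the RefSeq gene table, which lists Rpl6l as a pseudogene and Rps4l as a transcribed pseudogene. A further 14 ribosomal symbols, among them Rpl10, Rpl12, Rpl13a and Rps2, stood only on probe sets that also carry other genes, and they were not members.

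The ovaries came from female C57BL/6 mice of 6 or 12 months of age and were kept in culture for 24 h in medium with serum. Treated ovaries received 10 mg/mL of KRGSF, the saponin fraction of Korean red ginseng that the sample labels call RGE. The labels name DMSO for the untreated ovaries, whereas the methods say only that no KRGSF was added. Age and KRGSF thus made 4 groups, each with 3 arrays, and these samples had been picked for the purity of their RNA. It is not said whether different mice gave the 3 samples of a group. The p-values therefore cover the variation among the arrays at hand, part or all of which may be technical. Whole-ovary RNA cannot separate fewer cells of a type from less RNA per cell.

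Each cytosolic ribosome joins a small subunit, which reads the mRNA, to a large subunit, which forms the peptide bonds. Their proteins are made in matching amounts, since an unpaired ribosomal protein is degraded. Most of these mRNAs begin with a C followed by an unbroken stretch of C and T, the terminal oligopyrimidine (TOP) motif, through which the TOR kinase and the RNA-binding protein LARP1 govern their translation. In the ovary, TOR signalling to the ribosome is known for its part in the activation of resting follicles and in the growth of the oocyte.

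The starts of the genes are shown because the TOP motif is what ribosomal protein genes are known for, and the naming rule did not use it. The letters searched were a C at the RefSeq start followed by at least 4 bases that are C or T, on the strand of the gene. Of the 53 members with a start in the RefSeq table (GRCm38.p6), 11 (20.75%) had such a start, and so did 813 (3.01%) of all 27025 genes with a listed start. A run of the same kind lay within 10 bases of the start in 32 members (60.38%) and in 34.4% of all genes. A match describes these letters only, and RefSeq starts can lie a few bases from the base where transcription begins. The windows below hold 15 bases before the start and 15 from it on, with the run in capitals where it opens the transcript. Rps6 and Rpl28 gave bright signals and carry the motif, and Rpl14 and Rps18 are described below and carry it. Rpl6, Rps13 and Rps26 are described below for KRGSF at 12 months, the first pair on dim probe sets. They do not have the motif at the listed start. Rpl6 and Rps26 have a run of that kind within 10 bases of it, and Rps13 does not.
Rps6 (chr4:86857353-86857382, minus strand): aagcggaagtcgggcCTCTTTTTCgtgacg
Rpl28 (chr7:4792950-4792979, plus strand): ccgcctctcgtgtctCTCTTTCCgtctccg
Rpl14 (chr9:120571502-120571531, plus strand): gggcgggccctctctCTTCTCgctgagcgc
Rps18 (chr17:33955651-33955680, minus strand): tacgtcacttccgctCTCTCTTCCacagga
Rpl6 (chr5:121204486-121204515, plus strand): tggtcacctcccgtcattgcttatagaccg
Rps13 (chr7:116334176-116334205, minus strand): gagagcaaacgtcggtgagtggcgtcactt
Rps26 (chr10:128626492-128626521, minus strand): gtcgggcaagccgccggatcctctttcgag

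Values are log2 intensities as deposited, over 33793 probe sets, and the number of arrays limits their precision. Array medians lay between 4.12 and 4.40. A probe set was called dim when its mean over the 12 arrays was at most 4.86, the 95th percentile of 1405 probe sets of olfactory and vomeronasal receptors, which ovaries are not known for. On the marker lists, Star and Cyp11a1 of steroid-making cells had means of 9.56 and 8.38 and Inha of granulosa cells 6.92, whereas Foxl2 and Amh were dim, as were 13 of 15 oocyte and 10 of 11 lymphocyte markers. Replicate 2 of the 6-month-old untreated group stood apart, with the narrowest spread of values (SD 1.47, against 1.54 to 1.73 on the other 11 arrays) and the lowest mean correlation with the others (0.953). Replicate 2 of the 12-month-old KRGSF group had the widest spread (SD 1.73) and the next lowest correlation (0.959).

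The members ranged from near the floor of the array to near its top. The brightest probe set of each gene was used, and the highest means were those of Rps6 (10.63), the protein that S6 kinase phosphorylates, Rpl21 (10.60), Rpl28 (10.50), Rpl41 (10.37) and Rplp1 (10.06). The lowest were those of Rpl10l (1.86), a retrogene known for its role in the testis, Rpl32l (2.03), Rpl22l1 (2.62), Rps15 (2.99) and Rps16 (3.34). Signals of different probe sets depend on their probes, so this order is one of signal and not of transcript amount. In all, 22 of the 68 members were dim, 8 of the small and 14 of the large subunit, and 34 had a mean above 7. Rps15 and Rps16, core proteins of every small subunit, were among the dim ones, each measured by 1 probe set.

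Where a gene had several probe sets, they did not give the same picture. Of the 68 members 25 had more than 1 probe set, in 24 of them with different values, and the brightest and the dimmest of a gene lay 3.39 apart on the log2 scale at the median (0.67 to 5.98). For Rps26 the means were 8.17 and 2.19. In 12 of the 24 genes the dimmest probe set was dim. The fold changes of a gene's probe sets had both signs in 12 genes for age, in 10 for KRGSF at 12 months and in 11 for KRGSF at 6 months.

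**Figure D1:**
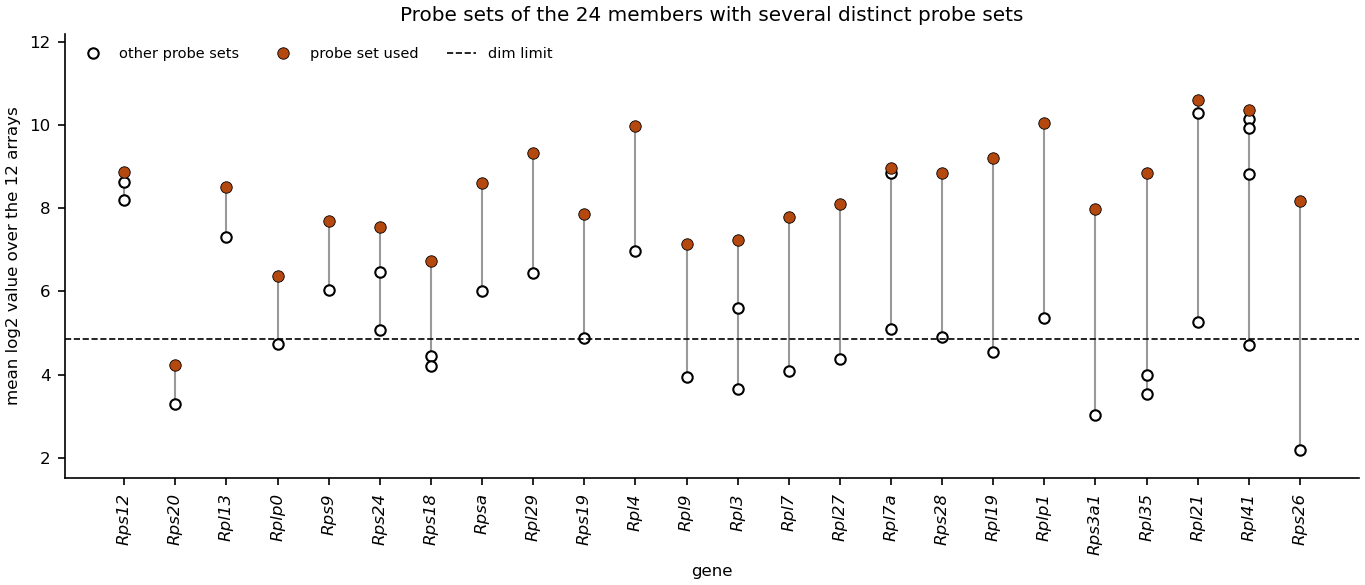
Mean log2 value over the 12 arrays (vertical axis) of every distinct probe set of the 24 members that have several, 1 column a gene ordered by the gap. Filled points are the probe sets used, open points the others and the dashed line the dim limit of 4.86; the gap runs from 0.67 in Rps12 to 5.98 in Rps26.

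No single ribosomal protein gene passed the adjusted test with age or with KRGSF. With limma and Benjamini-Hochberg adjustment over all 33793 probe sets, 0 of 68 members had an adjusted p under 0.05 in any comparison, and the lowest adjusted p was 0.615 for age, 0.433 for KRGSF at 12 months, 0.909 for KRGSF at 6 months and 0.862 for the difference between both responses. The background was as sparse: 0.00296% of all probe sets passed for age, 0.00296% for KRGSF at 12 months, 0% for KRGSF at 6 months and 0.00592% for the difference. At an unadjusted p under 0.05 the counts of members were small as well, and they are given below beside the share of all probe sets.

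The median of the 34 bright members was taken on each array to show the family at a glance. In 6-month-old untreated ovaries it was 8.61, 7.92 and 8.25, in 6-month-old KRGSF ovaries 8.51, 8.34 and 8.31, in 12-month-old untreated ovaries 8.48, 8.47 and 8.44 and in 12-month-old KRGSF ovaries 8.73, 8.53 and 8.62. The 12-month-old KRGSF arrays all lay above the 12-month-old untreated arrays, but the range of the 6-month-old untreated arrays alone held every other array except replicate 1 and replicate 3 of the 12-month-old KRGSF group. The medians of all 1595 probe sets with a mean above 7 were apart as well at 12 months. They were 7.8867, 8.0011 and 7.8615 on KRGSF arrays and 7.8306, 7.7335 and 7.835 on untreated arrays. Replicate 2 of the 6-month-old untreated group was the lowest of the 12 arrays for 37 of the 68 members, whereas no other array was lowest for more than 7. The dim members had medians between 3.96 and 4.31 on all 12 arrays. Within groups the median SD of a member was 0.23, the same as that of all probe sets (0.23).

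**Figure D2:**
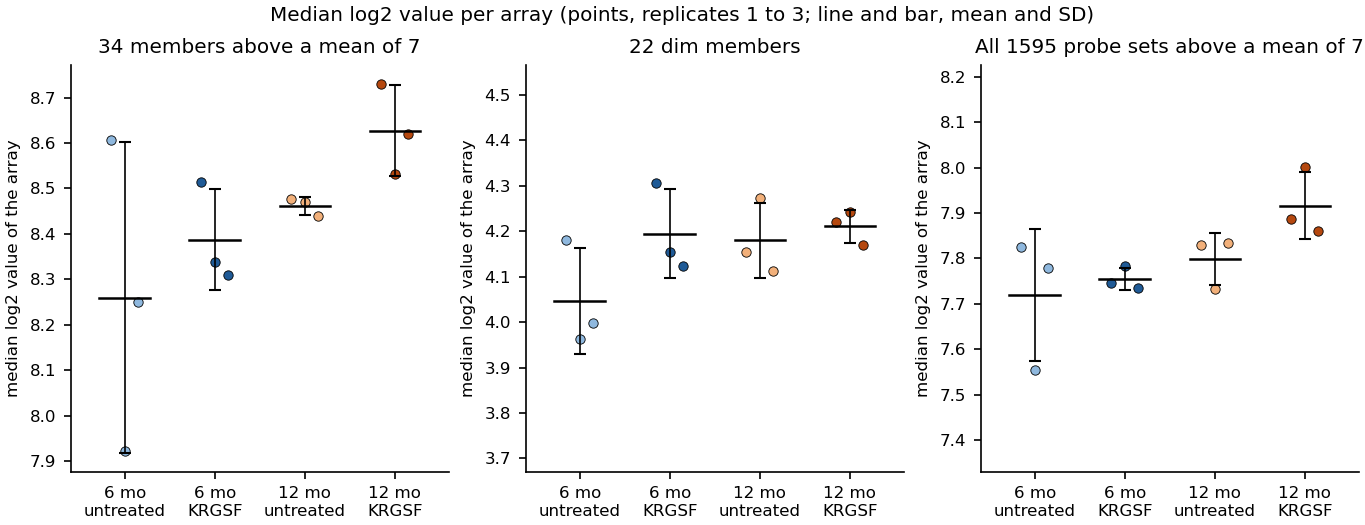
Median log2 value on each array (vertical axis) of the 34 members with a mean above 7, of the 22 dim members and of all 1595 probe sets with a mean above 7, in the 4 groups (horizontal axis). Points are the arrays in the order of replicates 1 to 3 and lines with bars are the mean and SD; all vertical axes span the same range, and replicate 2 of the 6-month-old untreated group (7.92) is the low point of the first panel.

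The first comparison asked what differed with age between untreated ovaries. The median log2 fold change of the 68 members at 12 over 6 months was 0.15, with 49 higher and 19 lower, but without replicate 2 of the 6-month-old untreated group it was -0.01, with 31 higher. The median over all probe sets was -0.02 and over the 1595 probe sets with a mean above 7 it was 0.14, close to the 0.19 of the 34 members of that brightness. At an unadjusted p under 0.05, 2 members were higher and 0 lower, against 3.42% of all probe sets higher and 4.63% lower. Without replicate 1 of the 6-month-old untreated group 17 members were higher at that level, and without replicate 2 of the same group 0 were.

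Both age differences at that level were in large-subunit genes. Rpl34 had values of 5.29, 4.45 and 5.09 at 6 months and of 5.38, 6.32 and 5.51 at 12 months. The groups did not overlap, but replicate 2 at 12 months was far above its companions. The log2 difference was 0.79 ± 0.34 (SE; unadjusted p = 0.0323, limma adjusted p = 0.615) and 0.50 without that array. Rpl14, whose start is shown above, had 8.39, 7.77 and 8.06 at 6 months and 8.44, 8.46 and 8.40 at 12 months, with a difference of 0.36 ± 0.16 (SE; unadjusted p = 0.0383, limma adjusted p = 0.619), which was 0.21 without replicate 2 at 6 months and 0.20 after cyclic loess scaling. Rpl38, known in mice for its role in translating Hox mRNAs, had 8.60, 7.32 and 8.03 at 6 months and 8.33, 8.48 and 8.47 at 12 months, and its difference of 0.44 came down to 0.11 without replicate 2 at 6 months. The dim Rps16 (0.84) and Rpl32l (0.36) were the other 2 of the 5 highest by the test statistic. Rps16 gave 0.58 without replicate 2 at 12 months and 1.28 without replicate 1 at 12 months. The lowest were Rpl6 (-0.39), Rpl11 (-0.37), Rpl26 (-0.31), Rpl9 (-0.34) and Rps18 (-0.22), and none of these 7 genes was past an unadjusted p of 0.05. Each of the 5 low values depended on 1 array. They came to -0.13 for Rpl6 and -0.17 for Rpl26 without replicate 1 at 12 months, to -0.12 for Rpl11 without replicate 2 at 12 months, to -0.15 for Rpl9 without replicate 3 at 6 months and to -0.13 for Rps18 without replicate 2 at 6 months.

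Markers of the oviduct and surface epithelium differed with age in the same arrays. Of 12 measured, 11 were higher at 12 months, 5 of them at an unadjusted p under 0.05, and 0 passed the adjusted test. Their mean log2 value over the list was between 6.28 and 6.50 on the 6-month-old untreated arrays and between 6.66 and 6.80 on the 12-month-old untreated arrays, with Krt8 and Epcam at means of 7.15 and 7.19. Of 11 theca, luteal and stroma markers 6 had higher values at 12 months, 3 of them at an unadjusted p under 0.05, and 5 had lower ones, 4 of them at that level, with a median of 0.13. The log2 differences ran from -2.31 to 0.52 in this list and from -0.12 to 0.71 in the oviduct and surface epithelium list. The part of either list in the values of the ribosomal protein genes was not tested.

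The next comparison asked what KRGSF changed in 12-month-old ovaries. At an unadjusted p under 0.05, 5 members were higher and 1 lower, against 4.61% of all probe sets higher and 5.63% lower. Of the 46 members above the dim limit 3 (6.52%) were higher and 0 lower, against 10.08% and 2.74% of all probe sets above it. Over the 68 members the median log2 fold change was 0.06, with 48 higher and 20 lower, and it turned to -0.01, with 32 higher, after cyclic loess scaling. The median over all probe sets was -0.05, and the 34 bright members (0.09) were close to all bright probe sets (0.12). The small subunit (0.05) and the large subunit (0.06) had nearly the same median.

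Rps13, a small-subunit protein often used as a reference in PCR, had values of 4.70, 4.24 and 5.06 in untreated and of 5.38, 5.75 and 5.62 in KRGSF ovaries at 12 months. All 3 treated arrays lay above all 3 untreated ones, and also above all 6 arrays of the younger ovaries, which ran from 4.13 to 5.30. The log2 difference was 0.92 ± 0.28 (SE; unadjusted p = 0.0045, limma adjusted p = 0.433), and its probe set, with a mean of 4.84, fell just under the dim limit.

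Rpl6, a large-subunit gene, had 3.30, 4.07 and 4.08 in untreated and 4.58, 4.34 and 4.62 in KRGSF ovaries at 12 months. The groups were apart, although the untreated group had 1 low array. The difference was 0.70 ± 0.21 (SE; unadjusted p = 0.0040, limma adjusted p = 0.433) on a dim probe set, and 0.44 without that low array, replicate 1. Rpl6l, listed as a pseudogene, had 7.24, 7.03 and 7.54 in untreated and 7.84, 7.94 and 7.84 in treated ovaries, with a difference of 0.61 ± 0.20 (SE; unadjusted p = 0.0085, limma adjusted p = 0.433). Copies so named may share probe sequence with their parent gene, and these values cannot tell their transcripts apart.

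Rpl4 had 9.78, 9.93 and 10.08 in untreated and 10.23, 10.65 and 10.31 in KRGSF ovaries at 12 months. The difference of 0.46 ± 0.18 (SE; unadjusted p = 0.0228) was carried by 1 of its probe sets. The other had -0.25, and the mean of both gave 0.11. Rps26, which lines the exit channel of the mRNA, had 8.23, 7.93 and 7.83 in untreated and 8.52, 8.50 and 8.34 in treated ovaries, apart by 0.46 ± 0.20 (SE; unadjusted p = 0.0363), or 0.29 after cyclic loess scaling. In both genes the treated arrays lay above the untreated ones without overlap.

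Rps23rg1, a retrogene of Rps23, was the member that was lower, counted on the brightest probe sets. It had 4.79, 4.60 and 4.62 in untreated and 4.40, 4.24 and 4.20 in KRGSF ovaries at 12 months, and the 3 treated arrays were the lowest of all 12. The difference was -0.39 ± 0.15 (SE; unadjusted p = 0.0195, limma adjusted p = 0.451), on a dim probe set. Rps18 had 6.85, 6.67 and 6.70 in untreated and 6.69, 5.78 and 6.53 in treated ovaries, and its difference of -0.41 shrank to -0.13 without treated replicate 2, as did that of Rpl39l (-0.38 to -0.13). Rps14 (-0.35) and Rps16 (-0.62), both dim, were the others at the low end, neither past an unadjusted p of 0.05. Rps16 had -0.36 without untreated replicate 2 and -1.06 without untreated replicate 1.

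**Figure D3:**
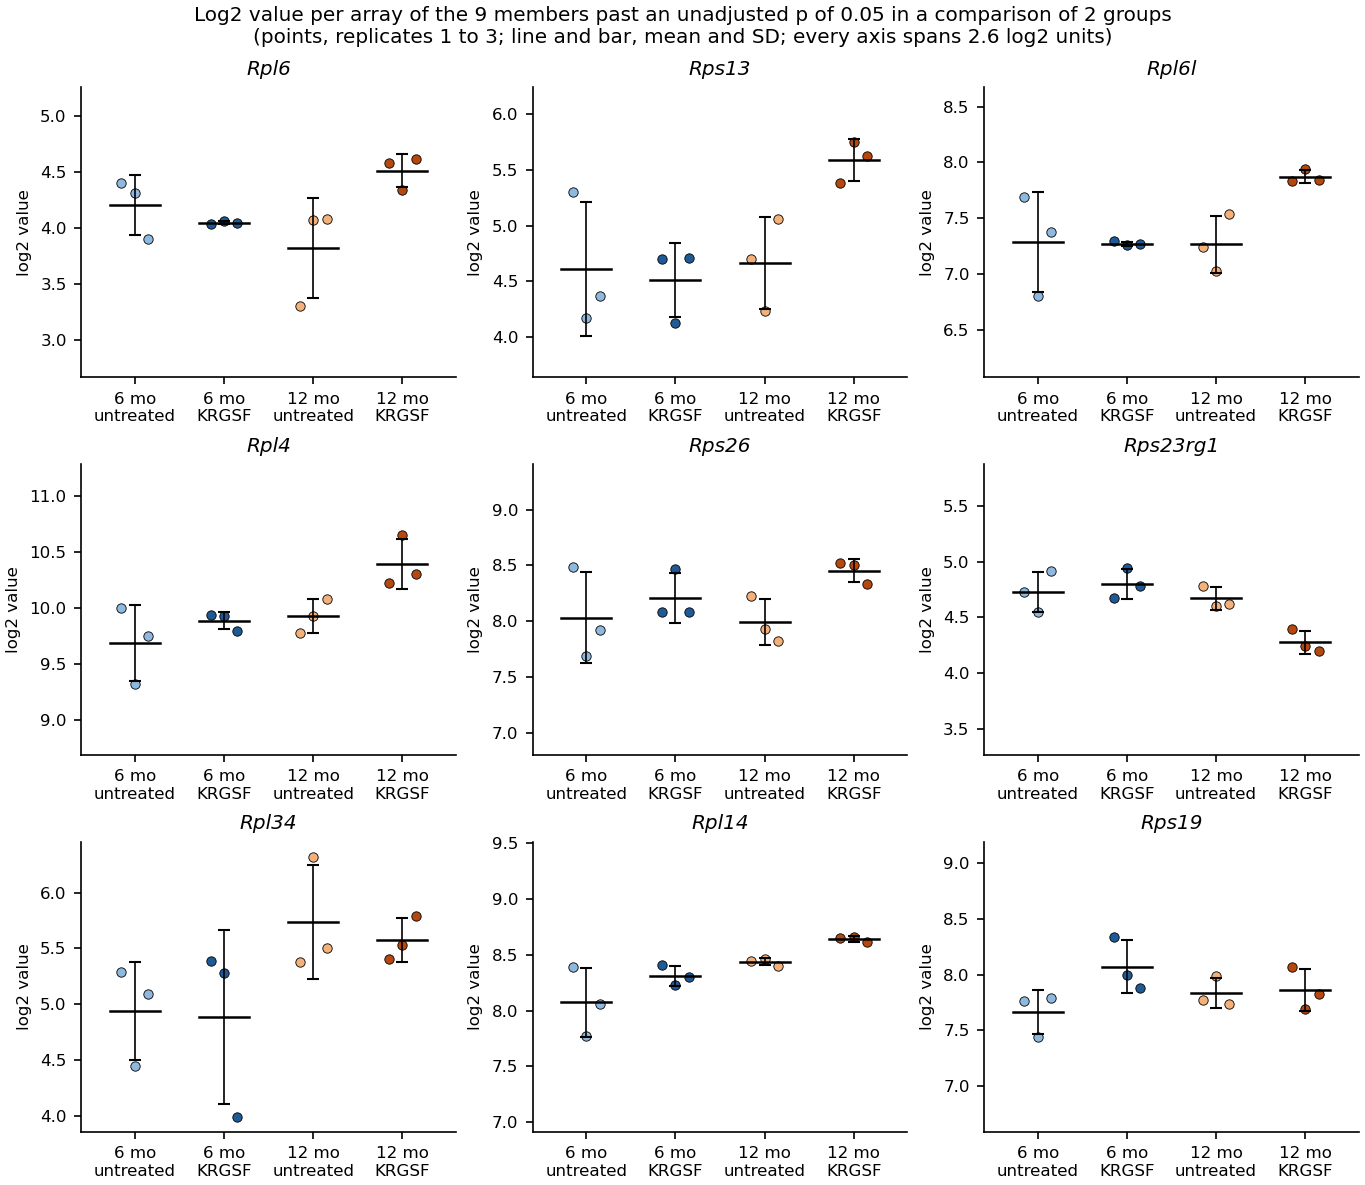
Log2 value on each array (vertical axis, every panel spanning the same range) in the 4 groups (horizontal axis) of the 9 members past an unadjusted p of 0.05 in the age or the KRGSF comparisons. Points are replicates 1 to 3 and lines with bars the mean and SD; in Rps13, Rpl6l, Rpl4 and Rpl14 the 12-month-old KRGSF arrays are above all others, and in Rps23rg1 they are below all others.

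The same comparison was made in the younger ovaries. With KRGSF at 6 months the median log2 fold change of the members was 0.13, with 49 higher and 19 lower, and -0.02, with 28 higher, without replicate 2 of the 6-month-old untreated group, an array that also serves as control in the age comparison. At an unadjusted p under 0.05, 1 member was higher and 0 lower, against 2.15% and 3.08% of all probe sets. That member was Rps19, the gene most often mutated in Diamond-Blackfan anaemia, an inherited failure of red cell production. It had 7.77, 7.44 and 7.79 in untreated and 8.342, 7.996 and 7.880 in KRGSF ovaries, with no overlap and a difference of 0.41 ± 0.17 (SE; unadjusted p = 0.0309, limma adjusted p = 0.909). At 12 months the same gene had 7.77, 7.99 and 7.74 in untreated and 8.07, 7.70 and 7.83 in treated ovaries, which overlap, with a difference of 0.03 (95% interval -0.33 to 0.40). Rplp0, with a difference of 0.38, and Rpl10a, with 0.37, came to 0.14 and 0.09 without the same control array. The dim Rpl17 (0.47) and Rps20 (0.43) completed the 5 highest by the test statistic, with 0.18 for Rpl17 without that control array and 0.18 for Rps20 without treated replicate 1. At the low end Rpl39 had -0.21 and the dim Rpl37a -0.22, and on the brightest probe sets no member was lower at an unadjusted p under 0.05. Other probe sets of some members passed that level in both directions. Examples are those of Rps26 (-1.12, at a mean of 2.19) and Rpl29 (0.46, at a mean of 6.45). Rps18 had -0.39 and 0.51 on dim ones.

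Whether the response to KRGSF depended on age was tested directly, as the difference between both responses. At an unadjusted p under 0.05, 3 members had a higher response at 12 months and 2 a lower one, against 2.05% and 3.4% of all probe sets. The higher ones were Rpl6 (0.86 ± 0.29 SE, unadjusted p = 0.0100), Rps13 (1.02 ± 0.39, unadjusted p = 0.0193, and 0.68 without replicate 1 of the 6-month-old untreated group) and Rpl6l (0.62 ± 0.28, unadjusted p = 0.0443), and the lower ones Rps14 (-0.58 ± 0.24, unadjusted p = 0.0318) and Rps23rg1 (-0.47 ± 0.21, unadjusted p = 0.0443). Of these, Rpl6l alone was not on a dim probe set. Rps14, whose loss causes the anaemia of the human 5q- syndrome, had 4.71, 4.34 and 4.57 in untreated and 4.91, 4.72 and 4.67 in KRGSF ovaries at 6 months, and 4.62, 4.83 and 4.95 against 4.29, 4.76 and 4.28 at 12 months. The median of the members was -0.06, but 0.02 with array weights and 0.09 without replicate 2 of the 6-month-old untreated group.

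**Figure D4:**
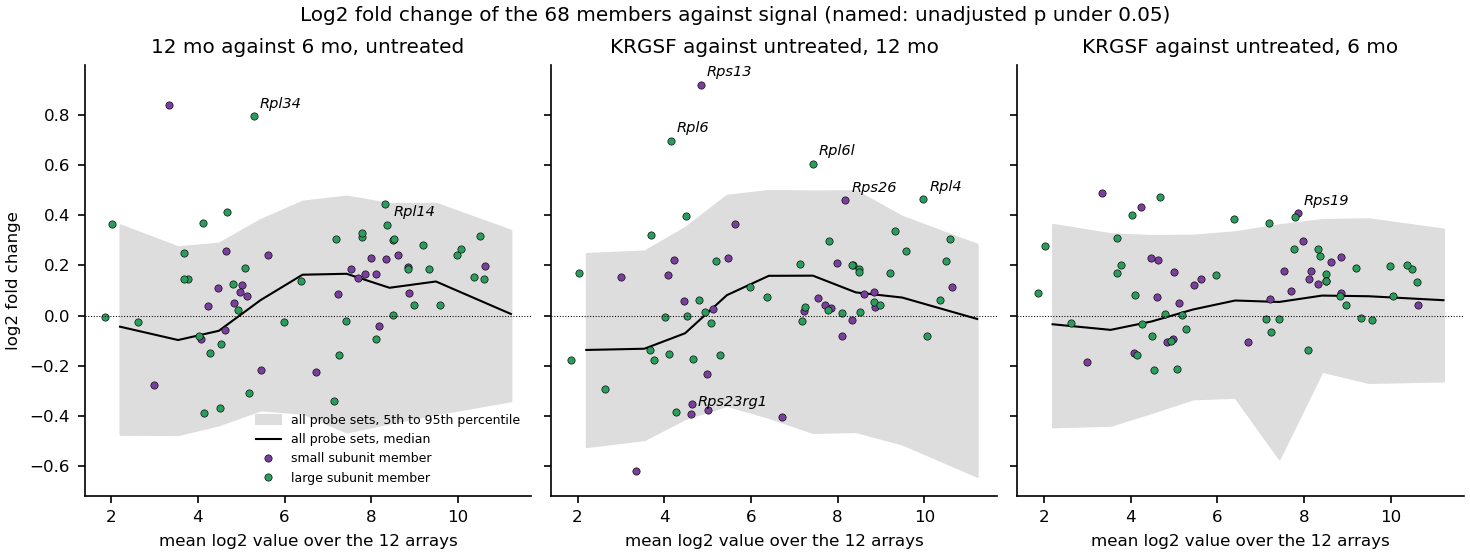
Log2 fold change of the 68 members (vertical axis) against their mean log2 value over the 12 arrays (horizontal axis) for age, KRGSF at 12 months and KRGSF at 6 months; small-subunit and large-subunit members have separate colours. The band holds the 5th to 95th percentile and the line the median of all probe sets of that brightness; most members lie in the band, and the named ones have an unadjusted p under 0.05.

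On the brightest probe sets, none of the 3 proteins of the ribosomal stalk, which recruits the elongation factors, passed an unadjusted p of 0.05 in any comparison. Other probe sets had the opposite sign for age. That of Rplp1, with a mean of 5.36, had -0.33 (limma unadjusted p = 0.0461). In Rplp0 the brightest had 0.14 and the other, a dim one, -0.43 (limma unadjusted p = 0.0118). The values that follow are those of the brightest probe sets. Rplp1 had 10.10, 9.70 and 9.98 in 6-month-old and 10.11, 10.33 and 10.14 in 12-month-old untreated ovaries, just apart, with a difference of 0.27 (95% interval -0.06 to 0.59), or 0.15 without replicate 2 at 6 months. With KRGSF at 12 months Rplp1 was at 10.23, 10.00 and 10.10, and the difference was -0.08 (-0.41 to 0.24). Rplp0 (0.07) and the dim Rplp2 (-0.14) had intervals that included 0 in that comparison as well. With KRGSF at 6 months Rplp0 had 0.38, as given above, Rplp1 0.08 and Rplp2 0.17. Rpl5 and Rpl11, which travel with the 5S RNA and bind the p53 regulator Mdm2 when free, had 0.11 and 0.40 with KRGSF at 12 months. Rpl11, on a dim probe set, had 4.59, 3.75 and 4.38 in untreated and 4.47, 4.49 and 4.95 in treated ovaries. These groups overlapped, the difference had a 95% interval of -0.04 to 0.83, and it was 0.15 without untreated replicate 2. For Rpl5 the 12 arrays lay between 5.73 and 6.19 and the groups overlapped.

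Of the 19 genes listed for Diamond-Blackfan anaemia 15 were measured. At 12 months all 15 had a higher value after KRGSF, with a median of 0.11 and 1, Rps26, at an unadjusted p under 0.05, but 8 of 15 after cyclic loess scaling and 10 after quantile normalization. In that comparison 70.59% of the members and 64.37% of all probe sets above the dim limit were higher, the latter with a median of 0.09. With age 8 of 15 were higher and with KRGSF at 6 months 11. Of a list of 12 paralogs and retrogenes 7 were measured and 5 of these were dim. The list does not hold the copies Rps23rg1 and Rpl6l, described above, nor Rpl32l (0.17 with KRGSF at 12 months). At 12 months 1 of the 7, Rps27l, had a higher value with KRGSF (5.66, 5.49 and 5.70 in untreated and 6.05, 6.05 and 5.87 in treated ovaries, a difference of 0.37 with a 95% interval of -0.18 to 0.92), and the other 6 had lower ones, with a median over the 7 of -0.18 and none of these 7 past an unadjusted p of 0.05. Those 6 include Rpl39l and Rpl10l, paralogs known from the testis, and Rpl3l, known from striated muscle. In that comparison 19779 of all 33793 probe sets had lower values. Over all probe sets of a given brightness, higher or lower, the median was -0.14 at means under 3, -0.13 at means of 3 to 4 and -0.07 at means of 4 to 5.

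Ribosomal protein genes often serve as references in quantitative PCR, so their range over the 12 arrays was recorded. It was 0.36 log2 units in Rpl27, whose values lay between 7.96 and 8.33, 0.91 in Rpl19, 0.96 in Rpl32, 1.10 in Rplp0, 1.33 in Rpl4, 1.37 in Rps18, 1.52 in Rpl7 and 1.63 in Rps13. On the brightest probe sets Rpl27 thus had the narrowest range among the 9 references measured here, with a KRGSF difference of 0.01 at 12 months (95% interval -0.29 to 0.31) and of -0.14 at 6 months (-0.44 to 0.17). The other probe set of Rpl27, a dim one, lay between 4.05 and 4.74. Its KRGSF difference was 0.08 at 12 months and -0.37 at 6 months. Rps29 spanned 0.61 on a dim probe set. Of the other references, Hprt had values from 5.93 to 7.83 and Actb from 7.70 to 8.37.

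The genes that build and use ribosomes were set beside the ribosomal proteins. Of 71 ribosome assembly factors listed, 66 were measured, and with KRGSF at 12 months 60 of them had a higher value, with a median log2 fold change of 0.29. At an unadjusted p under 0.05, 18 (27.27%) were higher and 0 lower, against 4.61% of all probe sets and 10.08% of those above the dim limit. None passed the adjusted test (lowest limma adjusted p = 0.433). Without treated replicate 2 the median was 0.21 and 6 were higher at that level. After cyclic loess scaling 55 were higher, with a median of 0.17.

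Rpf2, which helps place the 5S RNA in the large subunit, had 4.67, 4.54 and 4.86 in untreated and 5.28, 5.96 and 5.36 in KRGSF ovaries at 12 months, with no overlap. Its difference was 0.84 ± 0.23 (SE; unadjusted p = 0.0020, limma adjusted p = 0.433). Wdr43, of the small-subunit processome, had a difference of 0.48 ± 0.14 (SE; unadjusted p = 0.0044). Nop56, a core protein of the small nucleolar particles that methylate ribosomal RNA, had -0.52, or -0.16 without treated replicate 2, and Nop53 had -0.10, neither past an unadjusted p of 0.05. With age the same factors had a median of 0.11 with 1 at an unadjusted p under 0.05, with KRGSF at 6 months 0.06 with 1, and in the difference between both responses 0.23 with 7 higher and 1 lower.

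Initiation factors with KRGSF at 12 months had 29 of 33 higher values, a median of 0.19 and 7 (21.21%) higher at an unadjusted p under 0.05, and 21 of 33 higher with a median of 0.09 after cyclic loess scaling. Eif5b, which joins the subunits, had 0.63 ± 0.20 (SE; unadjusted p = 0.0054). Of 10 elongation factors 8 were higher, with 0 at that level. RNA polymerase I and its factors had 14 of 19 higher and 3 (15.79%) at that level, among them Rrn3 (0.48), which brings the polymerase to the ribosomal RNA genes. The TOR pathway and the regulators of TOP mRNAs had 16 of 19 higher and 3 (15.79%) at that level, Larp4 (0.50) and Larp1 (0.33) among them. The 71 genes of the mitochondrial ribosome, a separate machine, had 53 higher values, a median of 0.12 and 2 (2.82%) at that level. Of 14 RNA host genes of small nucleolar RNAs 8 were higher, with 0 at that level. These shares stand beside the same 4.61% of all probe sets and 10.08% of those above the dim limit. In none of these lists did a gene pass the adjusted test.

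**Figure D5:**
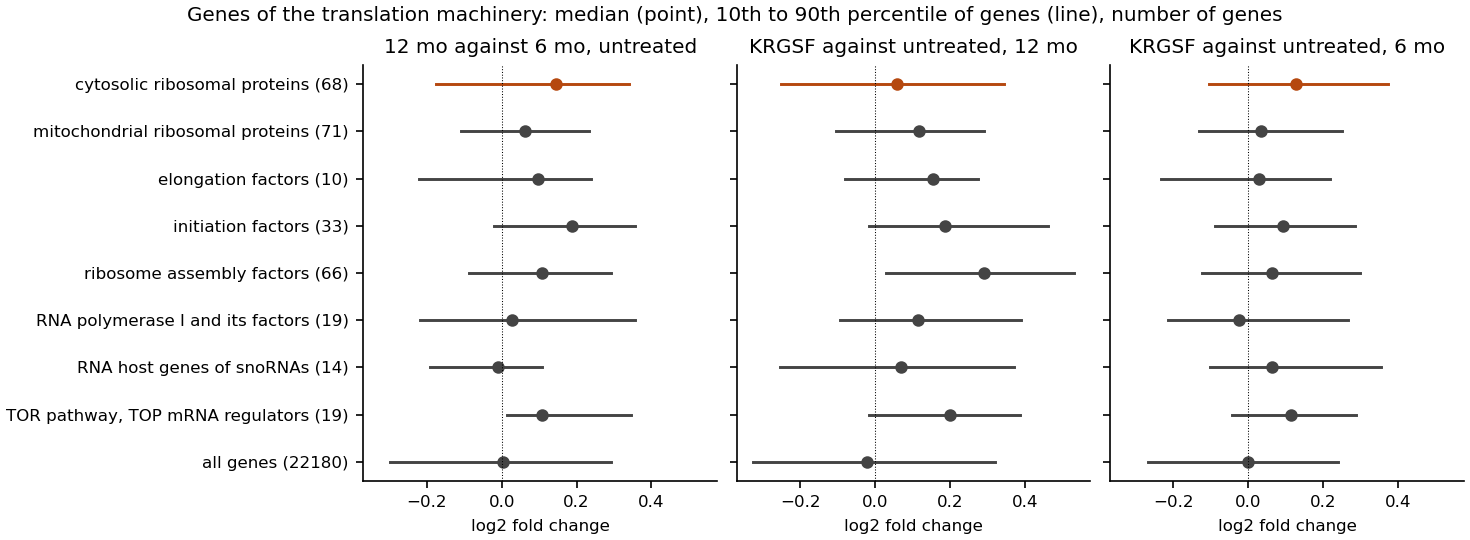
Median log2 fold change (points) and 10th to 90th percentile over genes (lines; horizontal axis) of the cytosolic ribosomal proteins and of related lists (vertical axis, number of genes in brackets) for age, KRGSF at 12 months and KRGSF at 6 months. With KRGSF at 12 months the assembly factors have the highest median (0.29), the ribosomal proteins 0.06, which turned to -0.01 after cyclic loess scaling.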

How the data were processed

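Total RNA of cultured ovaries had been hybridized to Affymetrix Mouse Gene ST arrays. The authors deposited log2 values per probe set, made with RMA in Affymetrix Expression Console 1.4 per the submitters' processing notes. Which arrays were normalized together and the annotation build are not given in the sources used here. Probe sets were named through the platform annotation: of 33793, 23521 had 1 symbol, 1820 several and 8452 none.

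Tests were run with limma 3.58.1 in R 4.3.3 on the log2 values: 4 group means over all 12 arrays (8 residual and 7.02 prior degrees of freedom), moderated statistics and Benjamini-Hochberg adjustment over all probe sets. The brightest single-symbol probe set stood for a gene. The fit was tested on simulated data. Members and gene lists were chosen with earlier results of these data known. Members named in the text were chosen among the 5 highest and the 5 lowest by moderated statistic in each comparison, the 5 brightest and 5 dimmest, the stalk, 5S, reference and paralog lists, and at most 2 at each end of other lists. Alternatives covered the samples in the fit, a replicate block, the methods' t-test, other scalings, a filter on dim probe sets, the mean over a gene's probe sets, array weights and leaving out arrays. Start windows are RefSeq sequence on GRCm38.p6.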

Additional observations from a re-analysis of the deposited data

How the results depend on the processing

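No member passed the adjusted test under any alternative run. The medians over the 68 members lay close to 0 and changed sign under some settings. For age the median was -0.014 without replicate 2 of the 6-month-old untreated group, alone or together with replicate 2 of the 12-month-old KRGSF group, and leaving out 1 array at a time gave -0.014 to 0.277. For KRGSF at 6 months the same settings gave -0.023, and leaving out 1 array gave -0.023 to 0.257. For KRGSF at 12 months cyclic loess scaling gave -0.0095, and leaving out 1 array gave 0.029 to 0.118. For the difference between both responses array weights gave 0.015, leaving out replicate 2 of the 6-month-old untreated group 0.090 and leaving out both arrays 0.111, with -0.201 to 0.090 over single arrays. Rps7 with KRGSF at 6 months had 0.018 without treated replicate 2 (-0.246 to 0.018 over single arrays), and Rpl29 in the difference between both responses had -0.031 as the mean of its probe sets. The cause was not tested.

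Counts at an unadjusted p under 0.05 moved by more than 1.5 times between settings. Members higher with age numbered 0 to 17, higher with KRGSF at 12 months 3 to 13 (13 by the methods' t-test), higher with KRGSF at 6 months 0 to 15, and with a higher response at 12 months 1 to 6. With the replicate block the medians stayed at 0.15, 0.06, 0.13 and -0.06, the adjusted counts stayed at 0, and members higher at that level numbered 2 for age, 5 for KRGSF at 12 months, 3 for KRGSF at 6 months and 3 for the difference. Of 18 pairs of arrays with the same number 2 had deviations that correlated above 0.1 (-0.28 to 0.23). The 36 other pairs ran from -0.21 to 0.24. With 3 arrays in a group, these correlations cannot tell whether arrays of the same number share an origin. The difference between both responses was not run with the methods' t-test, nor on the compared groups alone, which are all 12 arrays. For 22 dim members the signal over background limits what could be seen.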
